A study of Mus musculus with 42 samples.

Results

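Polyadenylation sites (PASs) that lie more than 4 kb and up to 50 kb past the annotated end of a protein-coding gene, on the strand of that gene and with no annotated gene of any type on that strand in between, are described here as far downstream PASs. PAS positions of all 38 3′READS libraries, joined when within 24 nt on the same chromosome and strand, gave 83916 PASs. Of these, 6235 were far downstream, 34932 lay in a last exon, 11274 lay up to 4 kb past a gene end and 5458 lay more than 50 kb past one. The far downstream PASs followed 3759 host genes, of which 2450 had 1 such PAS and the fullest had 15, and their median distance to the annotated end was 13.9 kb. The rule used position only and no read count.

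The study exposed NIH3T3 cells, an immortalized mouse embryonic fibroblast line, and C2C12 cells, a mouse myoblast line kept proliferating (C2C12P) or differentiated into myotube-like cells (C2C12D), to 250 µM sodium arsenite (AS), an oxidative stressor, and followed some cells into recovery (RC). 3′READS sequences the genomic base at which a poly(A) tail begins. Total RNA of NIH3T3 came as 3 untreated (NT) and 3 AS libraries, carrying the set numbers 1, 2 and 4, and as 1 library at each of 4, 8, 12 and 24 h of recovery (RC4 to RC24) in set 4. NIH3T3 cells labelled with 50 µM 4-thiouridine gave newly made RNA (4sU) and the unlabelled flow-through (Ft), each with NT at 0 h, NT at 4 h, AS and RC4 as 1 library apiece, so that the NT libraries differed in time and AS and RC4 had no replicate. The cytoplasm of C2C12P and C2C12D was sampled with 2 NT, 1 AS and 1 RC4 library each, and here too the NT libraries were of 0 h and 4 h. Total RNA of untreated C2C12P and C2C12D came as 2 libraries each. Immunoprecipitates of the RNA-binding protein TIA1 (TIA1 RIP) came with their inputs in 2 NT and 2 AS NIH3T3 pairs. No label says that libraries of a group came from separate cultures, so the p-values measure only the spread between these libraries.

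Cleavage and polyadenylation normally follow an upstream hexamer, most often AAUAAA or AUUAAA, and polymerase stops some distance beyond the cleaved site. When cleavage fails or is bypassed, transcription can run on past the gene end, and several stresses, among them heat and osmotic shock, are known to raise such readthrough in mammalian cells. 3′READS records a readthrough transcript only where it is cleaved and polyadenylated further on, so RNA that ran on without a poly(A) tail is not seen here. A read at a far downstream PAS can also end a longer 3′UTR than the annotation holds or a separate transcript, and the files do not tell these apart.

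The genomic sequence at the most read PASs and at those with the largest differences is given in the following lines as the 30 bases of mm9 (NCBIM37) that end at the PAS, from 5′ to 3′ on the strand of the transcript. The first 4 lines were chosen for a genomic A stretch at the PAS and the rest for a polyadenylation hexamer. Capitals mark the A stretch at the PAS in the first 4 lines and an AATAAA or ATTAAA hexamer in the rest. The 2 features do not exclude each other, and the Tmem207 and B3galnt2 lines also hold a hexamer, left in lower case.
Tmem207: attaaacagcttcataggttAAAAAAAAAA
Mau2: ataaagactttggaactgagAAAAAAAAAA
Cdipt: agtgttttcttggtgttaaaAAAAAAAAAA
B3galnt2: ttaataaaatcagtggccttcAAAAAAAAA
H60b: atctcatgaATTAAAggaaatttgaactaa
Hipk2: aattacATTAAActgtttggaatcactgaa
Zfp871: taaatctcAATAAAatcatggttctccaaa
Zbtb37: gtttgagaAATAAAacgtttaatactctta
Lcor: ctattcttctAATAAAttttgttgtgaaaa
Ensa: gaaaataaAATAAAgtgtctttaagaaaaa
Wdr95: tgtatAATAAAactgcctattaaccttcaa
Fzd3: tAATAAAactaaataacttgttctcttgtc

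Each line is named for the host gene, and each PAS lies in intergenic sequence past it. On the minus strand the windows are chr16:26454877-26454906 (Tmem207, 49002 nt past the end), chr8:72534320-72534349 (Mau2, 5702 nt), chr6:38637511-38637540 (Hipk2, 6878 nt), chr17:32902441-32902470 (Zfp871, 5740 nt), chr1:162933053-162933082 (Zbtb37, 5878 nt) and chr14:65811278-65811307 (Fzd3, 8585 nt). On the plus strand they are chr7:134135247-134135276 (Cdipt, 11263 nt), chr13:14134422-14134451 (B3galnt2, 43116 nt), chr10:22041544-22041573 (H60b, 32918 nt), chr19:41642102-41642131 (Lcor, 5395 nt), chr3:95445540-95445569 (Ensa, 9545 nt) and chr5:150446986-150447015 (Wdr95, 32545 nt).

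AATAAA or ATTAAA, searched on the transcript strand in the 40 nt before the PAS, was found at 66.3% of the far downstream PASs, 60.1% of those up to 4 kb past the end and 48.7% of last-exon PASs. In a window of the same length placed 111 to 150 nt upstream, the shares were 3.98%, 5.14% and 3.74%. The hexamers thus sat near the far downstream PASs more often than near last-exon PASs. The share hardly changed with distance, from 67.3% at 4 to 10 kb to 65.1% at 20 to 50 kb. Of the far downstream PASs, 29.9% overlapped a gene annotated on the opposite strand, and 151 had the next gene on their own strand within 1 kb.

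Many far downstream PASs had an A stretch or matched an mRNA end from elsewhere in the genome. An A stretch, defined as at least 8 A in the last 10 genomic bases before the PAS, was present at 1110 far downstream PASs, or 17.8%, compared with 3.53% of last-exon PASs. The 100 nt before the PAS matched the 3′ end of another gene's mRNA, at 85% identity or more over at least 70 nt, at 1125 PASs, or 18.0%, compared with 1.50% of last-exon PASs and 6.17% of those up to 4 kb past the end. With either feature a PAS is called copy-like here, and the 1793 copy-like PASs took 57.3% of the far downstream reads. The 4442 others are called unmatched. Copy-like PASs grew more frequent with distance, from 21.4% at 4 to 10 kb to 36.5% at 20 to 50 kb. At Mau2 and Cdipt the 100 nt were 99% identical to the mRNA ends of Nme2, a nucleoside diphosphate kinase, and Srsf2, a splicing factor. The deposited counts do not show how reads of those mRNAs were placed between the matching positions.

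Reads were few and uneven. The libraries held 1048335 to 6974664 PAS reads each, in which the lowest listed count was 5, so that an unlisted PAS had fewer than 5 reads and is given as 0. Of the 6235 far downstream PASs, 3104 were listed in 1 library, 54 in all 38, and 1568 reached 5 RPM (reads at the PAS per 1000000 PAS reads of the library) in any library. The 10 most read took 35.6% of the reads, and 8 of the 10 with the highest mean level in NIH3T3 total RNA were copy-like. Tmem207 led them, a PAS with 10 A at its end, with 6001 and 5245 RPM in NT and AS of set 1, 15.0 and 26.4 RPM in set 2, and 1428 and 1767 RPM in set 4. H60b and Hipk2 were the unmatched PASs among the 10.

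The total RNA sets stood apart from each other in these copy-like reads. In the share of all PAS reads that fell on far downstream PASs of at least 5 RPM, copy-like PASs took 1.43% and 1.27% of NT and AS in set 1, 0.133% and 0.144% in set 2, and 0.891% and 0.958% in set 4. Unmatched PASs took 0.228% and 0.190%, 0.175% and 0.174%, and 0.290% and 0.218% in the same libraries. Set 2 therefore lay far below the others in the copy-like share under either treatment, and the sets differed far less in the unmatched one. What set them apart was not tested. Marker genes of fibroblasts were listed in NIH3T3 at 10 of 10, and 10 skeletal muscle genes summed to at most 19.6 RPM there, 225 to 366 RPM in C2C12P and 13406 to 20128 RPM in C2C12D. Thy1, a fibroblast marker, was at 0 in all C2C12 libraries, but the other 9 fibroblast genes were listed there. The fibroblast list summed to 12198 to 21213 RPM in C2C12 and to 4433 to 18384 RPM in NIH3T3 total RNA. As a whole it did not set the lines apart.

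**Figure D1:**
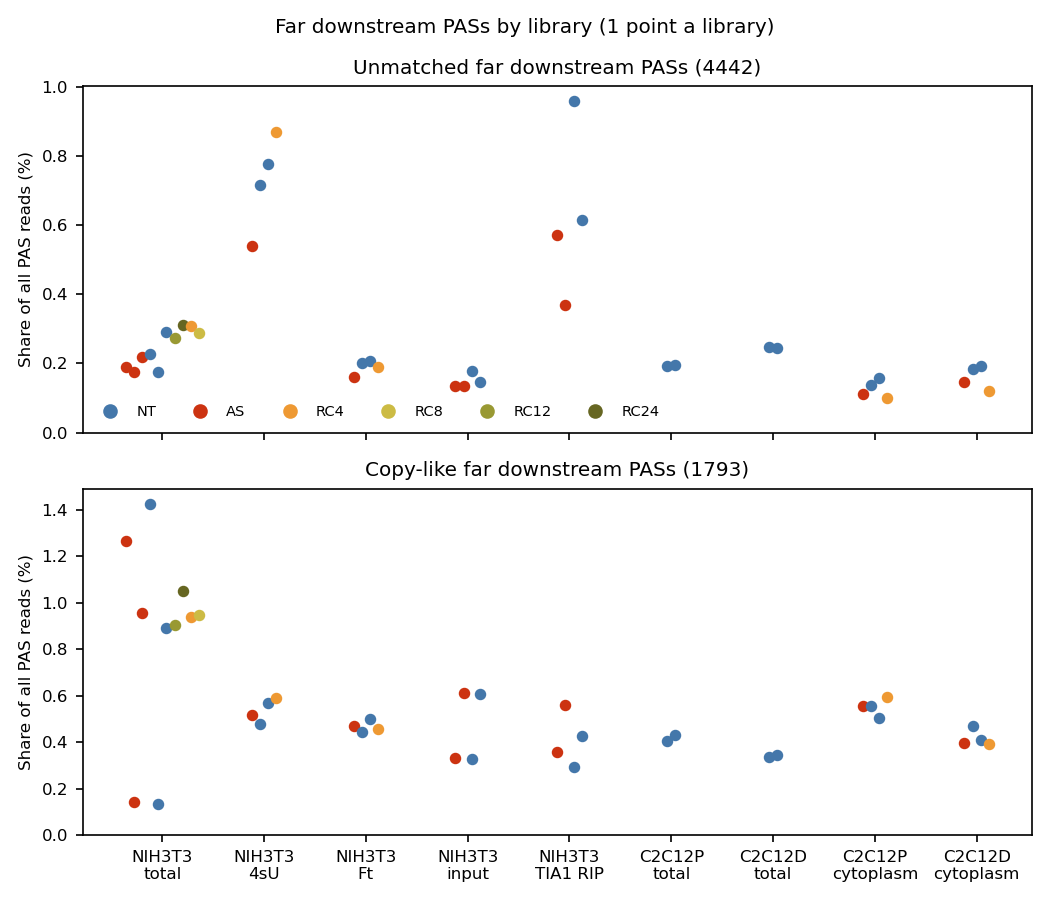
Share of all PAS reads (%) on unmatched (top) and copy-like (bottom) far downstream PASs of at least 5 RPM, with 1 point a library, coloured by condition. The 4 4sU and 4 TIA1 RIP libraries sit highest for unmatched PASs, and the total RNA sets spread widest for copy-like PASs, from 0.133% to 1.43%.

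Newly made RNA held more reads at far downstream PASs than flow-through RNA. The share was 1.19%, 1.35%, 1.06% and 1.46% in 4sU (NT at 0 h, NT at 4 h, AS, RC4) and 0.645%, 0.709%, 0.629% and 0.647% in Ft. Every 4sU library lay above every Ft library, and the means, 1.26% and 0.658%, differed 1.92-fold. An exact two-sided sign-flip permutation test over the 4 pairs gave p = 0.13, the smallest it can give. Unmatched PASs differed most, with 0.726% of 4sU and 0.190% of Ft reads (3.83-fold), and copy-like PASs far less, at 0.538% and 0.468% (1.15-fold). Nearest the gene the ratio was highest: unmatched PASs at 4 to 10 kb took 0.494% and 0.0993% (4.98-fold) and those at 10 to 50 kb 0.232% and 0.0903% (2.57-fold), whereas PASs up to 4 kb past the end, 15.4% and 14.8% of reads, differed 1.04-fold.

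Among single PASs, edgeR's quasi-likelihood test over all PASs, with the 4 pairs as blocks, had 412 of the 6235 far downstream PASs above its filter on low counts. Of these 183 (44.4%) were higher in 4sU and 35 (8.50%) lower at an adjusted p under 0.05, beside 23.7% higher and 20.6% lower of all PASs tested. The median log2 fold change was 1.18 for the far downstream PASs and 0.09 for all. At 4 to 10 kb 122 of 207 were higher and 8 lower, and at 10 to 50 kb 61 of 205 were higher and 27 lower. Unmatched PASs gave 139 higher and 9 lower of 263, copy-like PASs 44 higher and 26 lower of 149, and PASs up to 4 kb past the end were higher at 30.4% and lower at 17.6% of 2738. Because a PAS can pass the filter through the fraction in which it is high, the counts describe the PASs that passed and not all far downstream PASs. Among the 231 listed in all 8 libraries, 44.6% were higher and 16.5% lower, beside 27.6% and 27.1% of all PASs so listed.

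The highest ratios belonged to PASs that were listed in all 4 4sU libraries and in no Ft library. They passed the filter through 4sU alone, so their values are given with no test. The PAS past Lcor, a ligand-dependent nuclear receptor corepressor, had 18.3, 15.1, 12.0 and 17.1 RPM in 4sU (NT at 0 h, NT at 4 h, AS, RC4) and 0 in Ft. Ensa, which encodes a phosphatase inhibitor of mitosis, had 3.98, 8.08, 33.2 and 16.2 RPM, and Rpl30, a ribosomal protein gene, 17.1, 10.4, 16.6 and 9.03 RPM. Rbmx, a nuclear RNA-binding protein, had 7.56, 9.59, 9.21 and 5.42 RPM, while its own end had 47.9 to 194 RPM in 4sU and 46.5 to 70.6 RPM in Ft. The Rbmx mRNA was thus present in both fractions, and in NIH3T3 the far downstream PAS was listed in the 4sU libraries alone. In C2C12 it was listed in 3 total RNA libraries, at 1.13 to 2.33 RPM.

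In the other direction, 7 of the 8 PASs named by their fold as lower in 4sU were copy-like. B3galnt2, with 9 A at its PAS, had 15.1 to 32.7 RPM in 4sU and 70.8 to 90.3 RPM in Ft (log2 fold change −1.89 ± 0.22 SE, adjusted p = 0.00025, edgeR). Cdh18, whose PAS matched the mRNA end of Rpl13a, had 12.3 to 23.0 RPM in 4sU and 36.4 to 64.7 RPM in Ft (−1.59 ± 0.17, adjusted p = 0.000167, edgeR). The own ends of B3galnt2 and Cdh18 had at most 4.51 RPM in these 8 libraries. The exception, Trmt5, was unmatched, with 4.06 to 14.7 RPM in 4sU and 27.3 to 38.9 RPM in Ft.

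**Figure D2:**
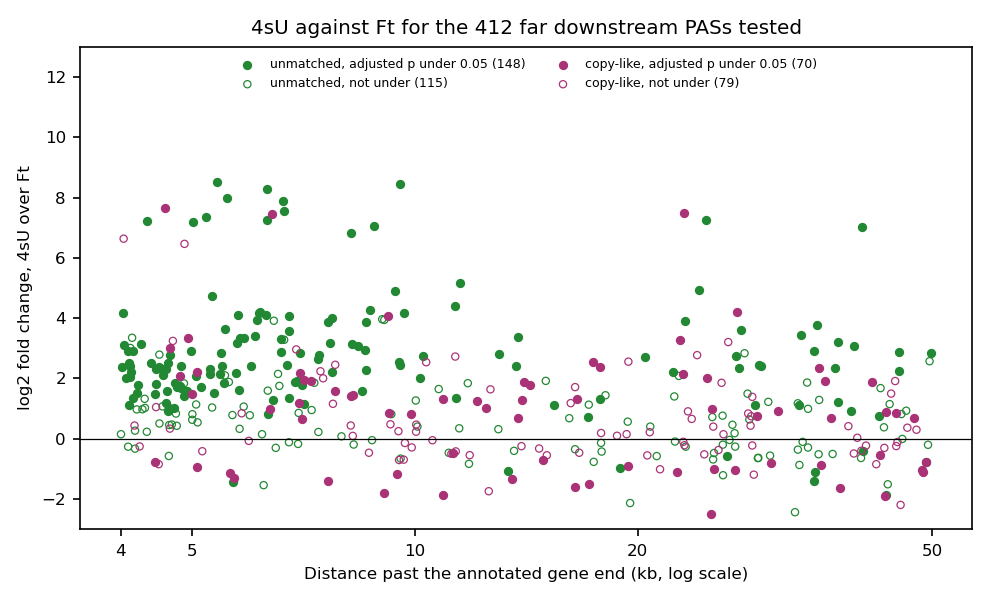
log2 fold change of 4sU over Ft (edgeR) against distance past the annotated gene end (kb, log scale) for the 412 far downstream PASs tested, coloured as unmatched or copy-like and filled where the adjusted p was under 0.05. The cloud lies highest between 4 and 10 kb, where 122 of 207 were higher in 4sU, and the few low points are mostly copy-like.

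Total RNA showed no change of any single far downstream PAS after arsenite that passed the test. Of the 6235 PASs, 269 passed the filter in 3 AS against 3 NT libraries, and 0 were called by edgeR in either direction (background 0%), with 0 at an unadjusted p under 0.05 and 0 by DESeq2. The far downstream share of reads was 1.66%, 0.308% and 1.18% in NT (sets 1, 2 and 4) and 1.46%, 0.318% and 1.18% in AS. The groups overlapped throughout (exact two-sided permutation test, p = 0.9, smallest possible 0.10). That test ignored the sets, so it measured mainly the spread between them. A sign-flip permutation test with the libraries paired by set gave p = 0.75. The set numbers paired the libraries, and with the set as a block edgeR again called 0 PASs, with 18 at an unadjusted p under 0.05. The PAS past Hipk2, a stress-activated kinase gene, was among the 3 lower ones with the smallest p, with 93.1, 66.3 and 392 RPM in NT and 91.4, 50.9 and 106 RPM in AS (log2 fold change −1.10 ± 0.71, adjusted p = 1, edgeR). In bulk RNA, fewer transcripts per cell and fewer cells carrying them cannot be told apart.

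Read against the reads at each host gene's own end, the far downstream reads likewise gave no call. The ratio of far downstream to own-end reads was fitted for 619 genes in total RNA, with 0 called (background 0%) and 0 at an unadjusted p under 0.05. In 4sU, with AS and RC4 against both NT libraries, it was fitted for 1164 genes, with 0 called (background 0%), 91 at an unadjusted p under 0.05 and a median log2 ratio of 0.92. That median was 0.45 without RC4, 0.60 without NT at 0 h, 1.55 without NT at 4 h, and 0.59 for genes with at least 30 reads at both places. Etf1, a translation termination factor with PASs 11.3 and 14.3 kb past its end, was among the 3 with the smallest p in the higher direction, at 3.83% and 1.68% of own-end reads in AS and RC4 and 0% in both NT libraries (adjusted p = 0.633, edgeR).

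A lower share in the nearest distance class nevertheless recurred across the sets. Each of 11 comparisons set an AS library against NT of the same set and fraction. In all 11 the share of PASs 4 to 10 kb past the end was lower in AS. The log2 ratios ran from −0.77 to −0.09, with a median of −0.24. In 4sU, Ft and the cytoplasm of C2C12P and C2C12D, AS was below both NT libraries, which were of 0 h and 4 h. The other comparisons had a lone NT library each. Copy-like PASs were lower in 4 of 11, PASs at 10 to 50 kb in 4 of 11, and those up to 4 kb past the end in 8 of 11, the last between −0.10 and 0.02. Unmatched PASs at 10 to 50 kb were lower in 8 of 11, with log2 ratios from −0.68 to 0.23 and a median of −0.11. Unmatched PASs at 4 to 10 kb were lower in 11 of 11, with a median log2 ratio of −0.62. In 4sU they took 0.542% and 0.580% in NT and 0.322% in AS, in Ft 0.113% and 0.111% in NT and 0.0728% in AS, and in TIA1 RIP 0.729% and 0.466% in NT and 0.426% and 0.270% in AS. Several of these libraries are fractions of the same cells, and the distance classes were set after values had been seen, so no test is given. Without the 10 most read PASs the share was lower in 11 of 11, and without the floor of 5 RPM in 10 of 11.

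At 4 h of recovery the nearest class differed by cell line and fraction. The 4 to 10 kb share lay near NT in NIH3T3, with log2 ratios of 0.06 in total RNA, −0.02 in 4sU and −0.09 in Ft. At 8, 12 and 24 h the total RNA ratios were −0.05, −0.03 and 0.10. Without the 10 most read PASs of this class the RC4 ratios were −0.17 in total RNA, −0.08 in 4sU and −0.37 in Ft. The AS ratios without them were −0.19 in total RNA of set 4, −0.31 in 4sU and −0.36 in Ft. The values near NT in total RNA and Ft thus rested on these most read PASs. In C2C12 cytoplasm the 4 to 10 kb share was lower than in AS, at −0.28 for C2C12P and −0.44 for C2C12D. Without the 10 most read PASs these ratios were −0.55 and −0.56. The unmatched PASs of this class made the difference wider, with −1.21 and −0.85 in C2C12P and C2C12D, and 0.08 in NIH3T3 total RNA.

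**Figure D3:**
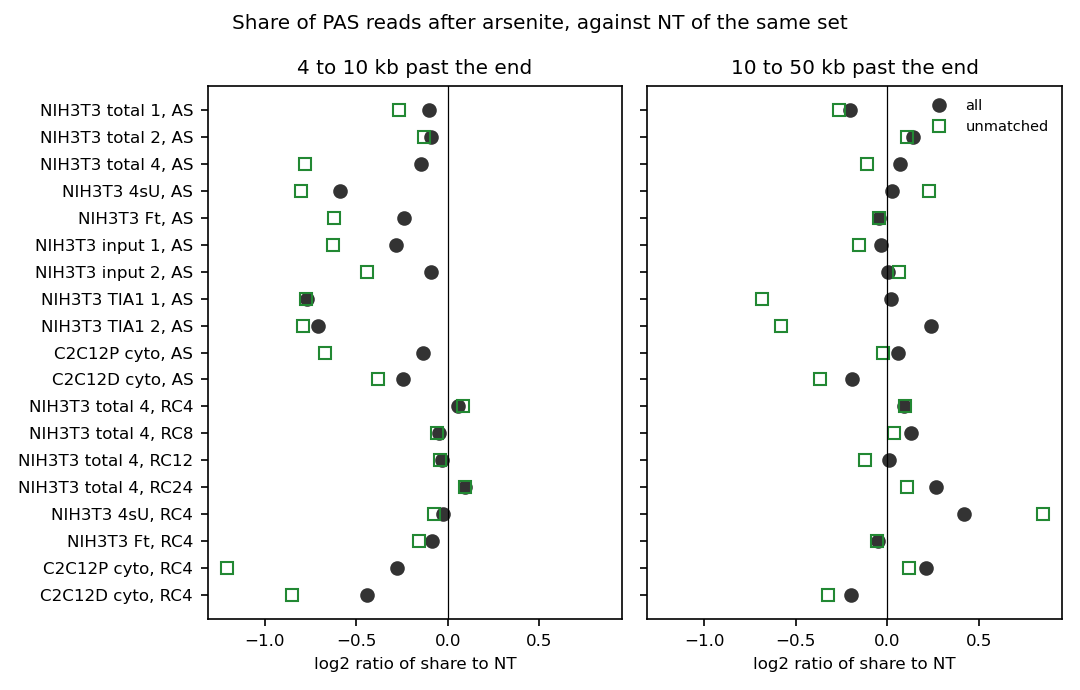
log2 ratio of the share of PAS reads in each arsenite or recovery library to NT of the same set, for far downstream PASs at 4 to 10 kb (left) and 10 to 50 kb (right), with filled circles for all and open squares for unmatched PASs. All 11 AS circles at 4 to 10 kb lie below 0, from −0.77 to −0.09, whereas those at 10 to 50 kb fall on both sides. Of the AS squares at 10 to 50 kb, 8 of 11 lie below 0.

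The lower share at 4 to 10 kb in AS was seen whether or not the host gene was read mainly at its own end. Of the 2673 genes with unmatched far downstream PASs, 520 had more reads there than at their own end, summed over all 38 libraries. The unmatched 4 to 10 kb PASs of these 520 genes were lower in AS in 11 of 11 comparisons, with a median log2 ratio of −0.65, and those of the genes read mainly at their own end also in 11 of 11, with a median of −0.56. The order of the 2 groups differed between fractions. In 4sU the first took 0.389% in NT on average and 0.164% in AS, a log2 ratio of −1.24, while the second took 0.153%, 0.192%, 0.157% and 0.179% in NT at 0 h, NT at 4 h, AS and RC4. The AS and RC4 values of the second group thus lay within the range of NT in 4sU. In Ft the second group was the lower one in AS, at −0.98 beside −0.51.

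Beyond 10 kb the PASs of genes read mainly at their own end took more of newly made RNA in AS and RC4 than in NT. Their 1964 unmatched PASs took 0.0446% and 0.0586% of 4sU reads in the NT libraries, 0.117% in AS and 0.128% in RC4, log2 ratios of 1.19 and 1.31. The PASs of at least 5 RPM numbered 45 and 57 in NT, 104 in AS and 106 in RC4. Without the 10 most read of them the shares were 0.0322% and 0.0466% in NT, 0.105% in AS and 0.111% in RC4, and with no floor they were 0.0895% and 0.121% in NT, 0.195% and 0.267%. In Ft the same PASs took 0.0213% and 0.0260% in NT, 0.0259% in AS and 0.0144% in RC4, and in total RNA of sets 1, 2 and 4 0.0324%, 0.0169% and 0.0356% in NT and 0.0284%, 0.0198% and 0.0412% in AS. Both arsenite libraries of 4sU thus lay above both NT libraries, whereas in Ft no arsenite library lay above both, and in total RNA AS was above NT of its set in 2 of 3 sets by far less. In TIA1 RIP they were lower in AS, with log2 ratios of −1.16 and −0.85. The unmatched PASs beyond 10 kb of the 520 genes took 0.130% and 0.140% of 4sU reads in NT, 0.101% in AS and 0.209% in RC4, so the value above NT at RC4 was seen in both groups and that in AS in 1. AS and RC4 are 1 library each, and the split was made after values had been seen, so the difference carries no test.

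**Figure D4:**
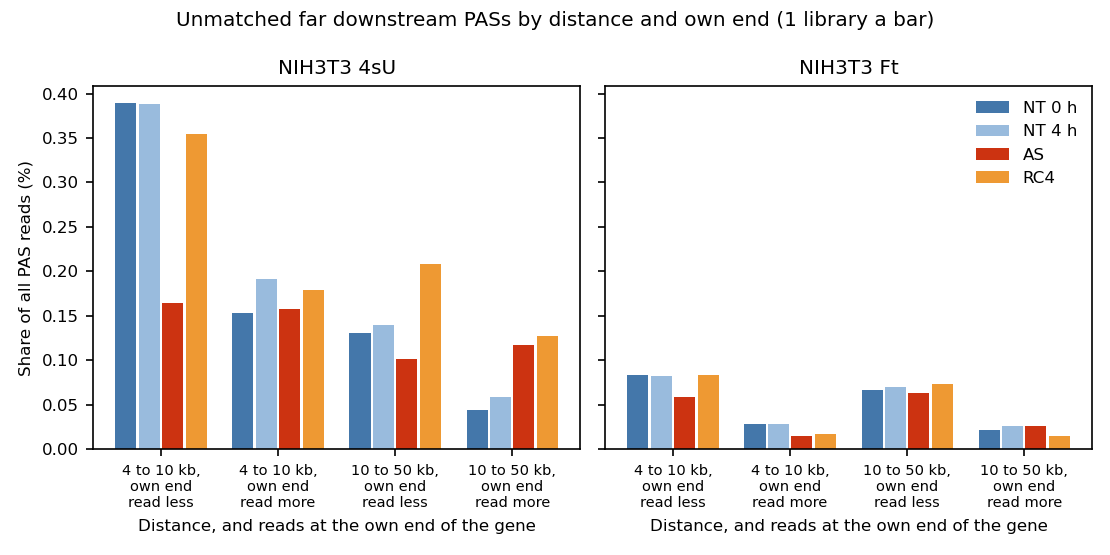
Share of all PAS reads (%) on unmatched far downstream PASs in NIH3T3 4sU (left) and Ft (right), grouped by distance and by whether the own end of the host gene had fewer or more reads over all libraries, with 1 library a bar. In 4sU the AS bar is low at 4 to 10 kb where the own end was read less (0.164%), and the AS and RC4 bars stand above both NT bars at 10 to 50 kb where it was read more (0.117% and 0.128%). The RC4 bar also stands above NT at 10 to 50 kb where the own end was read less (0.209%).

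The pooled test of AS and RC4 against both NT libraries called no single far downstream PAS in newly made RNA. In 4sU 698 PASs passed the filter, with 0 called by edgeR (background 0%) and 119 at an unadjusted p under 0.05. DESeq2 called 12 of them, beside 169 higher and 18 lower of all 20880 PASs tested. In Ft 286 passed, with 0 called by edgeR (background 0%), 17 at an unadjusted p under 0.05 and 0 called by DESeq2.

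Fitted alone against the 2 NT libraries, on the assumption that the lone library varied as NT did, AS in 4sU had 69 higher and 83 lower of 729 far downstream PASs (edgeR), beside 4.02% higher and 5.89% lower of all PASs. The lower calls gathered near the gene, with 57 of 373 at 4 to 10 kb and 26 of 356 beyond, and the higher ones were 34 and 35. RC4 in 4sU had 93 higher and 20 lower of 1171, beside 6.15% and 3.28% of all PASs, and here 66 of the 93 lay beyond 10 kb, of 650 tested, with 6 lower. Both comparisons share the NT libraries, and a PAS could pass the filter through the lone library. In Ft, AS gave 1 higher and 17 lower of 365 (background 0.901% and 1.46%), and RC4 35 higher and 23 lower of 400 (background 10.5% and 8.51%).

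The PASs with the largest folds above NT in 4sU after arsenite lay past genes of varied function. They were picked by their fold in a lone AS or RC4 library, so the folds have no replicate check. Orc4, a subunit of the origin recognition complex, had reads at a PAS 11.5 kb past its end. There it had 5.57 and 7.07 RPM in NT, 144 RPM in AS and 14.2 RPM in RC4, 22.8-fold higher in AS. Its own end had 102 and 135 RPM in NT and 117 RPM in AS, so that the far downstream reads went from 5.47% and 5.25% to 123% of own-end reads. In Ft it was listed in AS alone, at 4.92 RPM, and in NIH3T3 total RNA in no library, while C2C12P total RNA had 1.85 and 1.23 RPM.

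Eif3j, a subunit of a translation initiation factor, had 37.3 RPM in AS 14.3 kb past its end and 0 in the other 3 4sU libraries, at least 23.0-fold higher than NT when NT is set to 5 reads a library. Gabarapl1, a gene of the autophagy ubiquitin-like family, had 17.0 RPM in AS, 4.29 RPM in RC4, and 0 and 1.26 RPM in NT at 7.26 kb, while its own end had 75.0 and 88.7 RPM in NT and 117 RPM in AS. Hax1, an apoptosis regulator, had 19.8 RPM in AS and 0, 1.26 and 1.58 RPM in the other 3. The Wdr95 PAS, 32.5 kb past a gene with 0 reads at its own end in all 38 libraries, had 0 in both NT libraries, 37.8 RPM in AS and 81.7 RPM in RC4, at least 23.2-fold and 50.2-fold higher. With no read at the Wdr95 end, that PAS follows the gene in position only.

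At RC4 the largest folds in 4sU included a target of the oxidative stress response. Srxn1, sulfiredoxin, a target of the transcription factor NRF2, had 2.78 and 1.51 RPM in NT, 17.5 RPM in AS and 108 RPM in RC4 at a copy-like PAS 4.68 kb past its end, 50.1-fold higher in RC4. Its own end had 294 and 240.1 RPM in NT, 405 RPM in AS and 4024 RPM in RC4, so the far downstream reads were 0.947% and 0.631%, then 4.32% and 2.67% of own-end reads. Psmd5, a proteasome assembly chaperone, had 0 in NT, 5.53 RPM in AS and 38.4 RPM in RC4 at 22.2 kb, while its own end had between 67.6 and 89.6 RPM.

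Npr3, a natriuretic peptide clearance receptor, had 51.4 RPM in RC4 at 42.8 kb and 0 in the other 3, and Slc16a11, a monocarboxylate transporter family gene, had 33.8 RPM in RC4 at 6.62 kb and 0, 1.51 and 0 RPM in NT at 0 h, NT at 4 h and AS. At the own ends Npr3 had 7.56 and 10.9 RPM in NT and 22.6 RPM in RC4, and Slc16a11 3.58 and 5.81 RPM in NT and 66.6 RPM in RC4. The own ends of Srxn1, Npr3 and Slc16a11 were thus also above both NT libraries, and those of Orc4 and Psmd5 lay within or near the NT values.

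The PASs with the largest folds below NT in 4sU lay mostly at 4 to 6 kb. These folds, too, were picked in a lone AS or RC4 library and have no replicate check. Zfp871, a zinc finger gene, had 361 and 480.0 RPM in NT, 76.0 RPM in AS and 414 RPM in RC4, 5.53-fold lower in AS. Its annotated end had only 5.56 to 24.9 RPM. Zbtb37, another zinc finger gene, had 76.8 and 82.1 RPM in NT, 10.1 RPM in AS and 18.7 RPM in RC4, 7.84-fold lower in AS. Bnc2 encodes the zinc finger protein basonuclin 2. It had 76.0 and 108 RPM in NT, 39.6 RPM in AS and 11.1 RPM in RC4, 8.32-fold lower in RC4. Smad2, a signal transducer of activin and TGF-β, had 23.1 and 17.9 RPM in NT and 3.22 RPM in AS at 6.00 kb, while its own end had 187, 238 and 241 RPM in the same order. In 4sU NT the far downstream reads were 4324% and 8641% of own-end reads at Zfp871, and 536% and 956% at Zbtb37. In AS they were 306% at Zfp871 and 157% at Zbtb37. Smad2 had fewer reads far downstream than at its own end.

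Hipk2, named by its fold in Ft, had 495 and 478 RPM in 4sU NT, 98.6 RPM in AS and 195 RPM in RC4, and 94.0 and 112 RPM in Ft NT, 22.7 RPM in AS and 57.9 RPM in RC4. In Ft the AS value, from a lone library, was 4.54-fold lower than NT. Its annotated end had at most 7.43 RPM in the 18 NIH3T3 total, 4sU and Ft libraries. In total RNA of set 4 Hipk2 went from 392 RPM in NT and 106 RPM in AS through 152, 169 and 217 RPM at RC4, RC8 and RC12 to 279 RPM at RC24.

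In recovery the largest changes in total RNA belonged to a pair of secreted growth factor genes. Inhba, the activin A subunit, had 59.1, 22.6 and 37.5 RPM in NT, 44.6, 15.8 and 39.9 RPM in AS, and then 268, 69.2, 66.2 and 47.7 RPM at RC4, RC8, RC12 and RC24 at a PAS 4.40 kb past its end. Fgf2, basic fibroblast growth factor, had 88.1, 75.7 and 89.7 RPM in NT, 64.7, 63.7 and 60.2 RPM in AS, and 391, 147, 105 and 63.9 RPM over the same recovery times at 4.73 kb. Against NT of set 4 the RC4 values were 7.16-fold and 4.36-fold higher, above all 3 NT libraries, and at RC24 Inhba lay within and Fgf2 below the NT values. The annotated ends had at most 7.43 RPM (Inhba) and 8.49 RPM (Fgf2) in these libraries, so nearly all reads of both genes lay at the far downstream PAS.

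In newly made RNA, Inhba had 814 and 634 RPM in NT, 366 RPM in AS and 1089 RPM in RC4, and Fgf2 had 449 and 379 RPM in NT, 145 RPM in AS and 408 RPM in RC4. Both were below NT in the AS library, and at RC4 Inhba was above and Fgf2 within the NT values. In C2C12 cytoplasm the RC4 values did not lie above NT of the same cells, with 101 RPM (C2C12P) and 76.5 RPM (C2C12D) for Inhba beside 95.2 to 171 RPM in NT, and 41.0 and 44.1 RPM for Fgf2 beside 102 to 222 RPM. At RC8, RC12 and RC24 the other PASs chosen by fold reached at most 30.8 RPM where they were higher, and with 1 library per time these values have no replicate check.

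**Figure D5:**
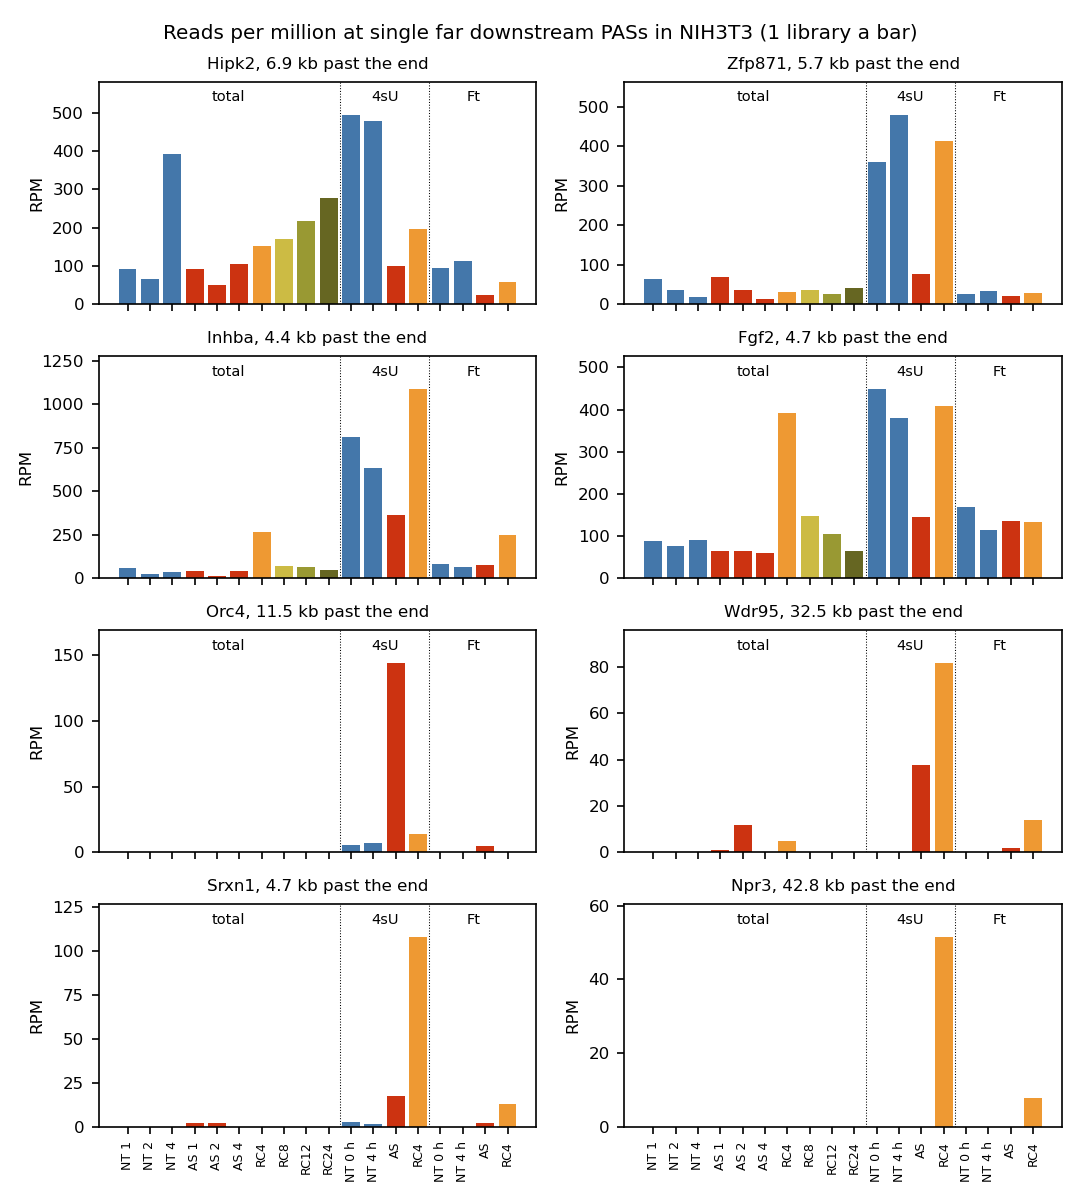
RPM at 8 far downstream PASs in each NIH3T3 total, 4sU and Ft library, with 1 library a bar, coloured by condition. Hipk2 and Zfp871 drop in the AS bars of 4sU, Inhba and Fgf2 peak at RC4 of total RNA (268 and 391 RPM), Orc4 stands out in AS of 4sU (144 RPM), and Srxn1, Wdr95 and Npr3 are highest in RC4 of 4sU.

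Across hosts, the ratio of far downstream to own-end reads was modest where both were listed. The median over genes with both was 6.50%, 12.5% and 9.34% in 4sU NT, AS and RC4, and 7.11%, 15.0% and 12.2% in Ft, where NT holds 2 libraries and the others 1. These medians move with depth, since a gene needs 5 reads at both places. In the same groups of libraries 33.3% to 48.6% of the hosts with far downstream reads had more reads there than at their own end.

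RNA bound by TIA1, an RNA-binding protein of stress granules, held more reads of unmatched PASs near the gene than its input did. Of 257 far downstream PASs tested with the 4 RIP and input pairs as blocks, 61 were higher in RIP and 17 lower (edgeR), 23.7% and 6.61%, beside 11.9% and 11.0% of all PASs. All PASs tested had a median log2 fold change of −0.08 and the far downstream ones of 0.91. Unmatched PASs at 4 to 10 kb gave 44 higher and 0 lower of 101, and PASs at 10 to 50 kb 15 higher and 14 lower of 126. A PAS can pass the filter through RIP alone, so these counts describe the PASs that passed. The unmatched class at 4 to 10 kb was not tested apart among PASs listed in every library. At the 10 to 50 kb distance the shares of calls were close to the background. Among the 104 listed in all 8 libraries, 43.3% were higher and 15.4% lower, beside 21.4% and 18.5% of all PASs so listed.

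Zfp871 had 397, 428, 230 and 217 RPM in RIP (2 NT, then 2 AS) and 37.6, 16.6, 19.5 and 18.9 RPM in input (log2 fold change 3.65 ± 0.31, adjusted p = 0.000201, edgeR). Fzd3, a Wnt receptor gene, had 29.4, 54.0, 18.6 and 41.1 RPM in RIP and 1.65, 0, 0 and 0 RPM in input. Slc25a46, a mitochondrial outer membrane carrier, had 39.5, 3.42, 9.43 and 11.6 RPM in RIP and 0 in all 4 inputs, with 1 NT library far above the rest. Among the lower PASs were the copy-like ones of Mau2, with 126 to 263 RPM in RIP and 660 to 1125 RPM in input (−2.29 ± 0.21, adjusted p = 0.000212, edgeR), and Zfp105, with 7.21 to 53.9 RPM and 80.4 to 168 RPM (−2.36 ± 0.34, adjusted p = 0.00127, edgeR).

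Between differentiated and proliferating C2C12 total RNA, 391 far downstream PASs were tested, with 138 higher (35.3%) and 51 lower (13.0%) in C2C12D (edgeR), beside 26.5% and 22.4% of all PASs. The higher share of calls in C2C12D was not seen among the 315 listed in all 4 libraries, of which 23.5% were higher and 14.6% lower, beside 24.0% and 23.6% of all PASs so listed. The PAS past Lamp1, a lysosomal membrane protein, had 34.2 and 28.9 RPM in C2C12D and 0 in both C2C12P libraries at 26.5 kb, while its own end had 1256 and 1287 RPM in C2C12D and 1149 and 1091 RPM in C2C12P. Ssr2, a subunit of the translocon-associated complex, had 27.7 and 27.5 RPM and 0 at 29.1 kb, beside 349 and 333 RPM and 327 and 280.0 RPM at its own end. Both PASs were picked among called ones that did not overlap between the cell states, and they passed the filter through C2C12D alone. Their 0 in C2C12P, in spite of the reads at the own ends, is therefore given with no test. The copy-like PAS past Thy1 had 1.56 and 1.13 RPM in C2C12D and 14.8 and 13.3 RPM in C2C12P, with 0 at its own end in all C2C12 libraries, and it matched the mRNA end of Ddx27, an RNA helicase.

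Few far downstream PASs of stress, growth and housekeeping genes had the reads to be tested. Of 24 heat shock and chaperone genes 7 had 14 such PASs, of 20 NRF2 and metal response genes 8 had 11, of 30 immediate early genes 9 had 16, of 22 cleavage and polyadenylation genes 4 had 7, of 34 ribosomal protein genes 8 had 13, of 28 extracellular matrix genes 3 had 6 and of 24 cell cycle genes 4 had 13. In 4sU against Ft 1 of 2 cell cycle PASs and 0 of 1 heat shock PAS were higher (background 23.7%). Of the 2 ribosomal protein PASs above the filter, Rpl30 passed it through 4sU alone and is not counted, and the other was not called. In C2C12D the 1 heat shock PAS tested was higher (background 26.5%), 1 of 2 cell cycle PASs was lower (background 22.4%) and 0 of 1 extracellular matrix PAS was called. In TIA1 RIP 1 of 2 cell cycle PASs was higher (background 11.9%) and 0 of 1 heat shock PAS. After arsenite 0 of 3 tested were called in total RNA, 0 of 14 in pooled 4sU and 0 of 4 in Ft, where the background was 0%. With at most 4 tested per list in any comparison, the counts say little about the lists.

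Hspa1a, the inducible Hsp70, reached 33.4 RPM at its own end in RC4 of 4sU and 83.6 RPM in Ft, with 0 in NT of both, while its PAS at 7.09 kb had at most 1.51 RPM in 4sU and 0 in Ft. Hspa5, the Hsp70 of the endoplasmic reticulum, had 5.17 and 11.4 RPM in 4sU NT, 12.4 RPM in AS and 9.93 RPM in RC4 at 27.0 kb. The NRF2 list summed to 3.79 to 145 RPM in the 4sU libraries, and Srxn1 made up 108 RPM of the highest. Nqo1, a quinone reductase of the same response, had 2.78, 0, 0 and 8.80 RPM in 4sU NT at 0 h, NT at 4 h, AS and RC4. Cdk6, a kinase of the G1 phase, was the most read of these genes at a copy-like PAS 7.79 kb past its end, with 195 and 166 RPM in 4sU NT, 96.3 RPM in AS and 72.4 RPM in RC4.

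PASs were found on both sides of the 4 and 50 kb limits. The 407 PASs at 3.5 to 4 kb and the 390 at 4 to 4.5 kb had hexamers at 67.1% and 63.3%, and took 0.0855% to 0.167% and 0.0890% to 0.184% of 4sU reads and 0.0377% to 0.0757% and 0.0248% to 0.0422% of Ft reads. At the far limit 61 PASs lay at 49 to 50 kb and 50 at 50 to 51 kb, but the former, Tmem207 among them, took far more reads, with 0.0295% to 0.0418% beside 0.00585% to 0.0130% of 4sU reads and 0.0355% to 0.0579% beside 0.00333% to 0.00651% of Ft reads.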

How the data were processed

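The authors deposited PAS tables of raw read counts for 38 3′READS libraries (mm9; cutadapt, Bowtie2 and STAR are named in the submitters' notes, versions not given in the sources used here). The lowest listed count was 5. The 4 RNA-seq libraries were not used here. Positions within 24 nt were joined, and host genes were taken from GENCODE vM1 on NCBIM37. A gene's own end was its last exon and up to 4 kb past it. Ratios to own ends needed at least 10 reads at both. mRNA ends were searched with BLAST 2.17.0. Shares summed PASs of at least 5 RPM. Tests used edgeR 4.0.16 (R 4.3.3) with TMM, filterByExpr, quasi-likelihood fits over all PASs and Benjamini-Hochberg adjustment, and DESeq2 1.42.0 as an alternative, and the fits were tested on simulated counts. Same-numbered total RNA libraries deviated together (r = 0.83, 0.85 and 0.74 over 15966 PASs), so the numbers paired them, and the set number was a block in an alternative fit.

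Named PASs were the 10 highest in NIH3T3 total RNA, up to 8 a direction with the largest fold among called, non-overlapping PASs (otherwise the 3 with the smallest p), up to 5 genes a direction for ratios (otherwise the 3 with the smallest p), up to 5 a direction for single libraries at 10 RPM or more, and up to 4 genes a list, of which the text gives a selection. Members and lists were chosen with earlier results of these data known, and the copy-like, distance and own-end splits after values were seen.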

Additional observations from a re-analysis of the deposited data

Results flagged for a closer look

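NIH3T3 total RNA and C2C12 cytoplasm moved in opposite directions at RC4 against NT in 6 comparisons, and these differences were not tested. For the share of PASs 4 to 10 kb past the end, NIH3T3 minus C2C12 differed by 0.335 (C2C12P) and 0.498 (C2C12D) on the log2 scale, with 0.446% in RC4 and 0.428% in NT of NIH3T3, 0.227% in RC4 and 0.273% and 0.277% in NT of C2C12P, and 0.195% in RC4 and 0.263% and 0.265% in NT of C2C12D. The NIH3T3 log2 ratio of this share was near 0, at 0.06 in total RNA and −0.17 there without the 10 most read PASs. It was −0.02 in 4sU and −0.09 in Ft, so its sign depended on a few PASs and on the fraction. For the Inhba PAS the differences were 3.33 and 3.64, and for the Fgf2 PAS 4.10 and 3.67. The libraries are of total RNA in one line and of cytoplasm in the other, so line and fraction cannot be told apart, and RC4 is 1 library in each. Groups had fewer than 4 libraries throughout, so no outlying library could be sought within a group.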

How the results depend on the processing

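The counts of called PASs moved as follows. With PASs over 10 kb only, 4sU against Ft gave 88 of 205, TIA1 RIP 29 of 126 and C2C12 100 of 189. With PASs listed in every library, 4sU against Ft gave 141 of 231, beside 4080 higher and 4016 lower of all 14804. C2C12 gave 120 of 315 so listed, beside 4303 higher and 4235 lower of all 17926. DESeq2 gave 12 of 698 in 4sU, beside 169 higher and 18 lower of all 20880. In TIA1 RIP it gave 125 of 257, beside 2312 higher and 2698 lower of all 15197. No filter on low counts gave 53 of 3424 in 4sU after arsenite, beside 608 higher and 93 lower of all 47959. In Ft it gave 6 of 1299, beside 413 higher and 50 lower of all 37115. The 4sU share without a filter was near that of all PASs, and the Ft share below it. The number tested also moved when a library or pair was left out. Leaving out 1 library or pair gave 144 to 204 for 4sU against Ft (144 without NT at 4 h), 52 to 58 for TIA1 RIP, 123 to 215 for C2C12 (123 and 125 without either C2C12D library), 0 to 152 in 4sU after arsenite (113 without AS, 152 without RC4) and 0 to 58 in Ft (58 without AS, 18 without RC4). The log2 share of AS against NT in total RNA (−0.05) was 0.0022 with PASs over 10 kb, and −0.776 to 0.631 with 1 library left out, positive without NT 1 (0.436), NT 4 (0.192) or AS 2 (0.631). In 4sU AS against NT (−0.27) was 0.0261 over 10 kb, −0.0575 without the 10 most read, −0.469 for unmatched PASs and −0.588 at 4 to 10 kb. RC4 against NT in 4sU (0.20) was 0.327 with no floor, 0.416 over 10 kb and −0.0245 at 4 to 10 kb. AS against NT in Ft (−0.11) was −0.333 for unmatched PASs and −0.237 at 4 to 10 kb. The unmatched and 4 to 10 kb settings, and the distance settings of TIA1 and C2C12, were chosen after seeing the data. A replicate block gave 0 calls in total RNA, 4sU and Ft after arsenite and 138 in C2C12, where the replicates share only a number, and an exact permutation p = 0.75 for the total RNA share. No pair block gave 147 for 4sU against Ft and 53 for TIA1 RIP. Of 558 alternatives for single named PASs, 487 kept their side of the threshold, 26 gained and 45 lost significance, and none reversed. The cause was not tested. Depth limits what is seen, since a PAS under 5 reads is not listed.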
